A study of Mus musculus with 120 samples.

Results

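Deletion of a single enhancer, called Enh9E, was examined in mouse embryonic stem cells of the line E14/TG2A after 8 days of neural differentiation. RNA was sequenced from 3 libraries of cells carrying the deletion (KO, made with CRISPR-Cas9, day 8) and from 2 libraries of unedited cells (WT, day 8), which make up 5 of the 120 samples of the series. The labels call both groups neural progenitors, and neither group carried any other allele or agent that the labels name. They give neither the position of Enh9E nor the gene it serves, and they do not say whether the replicates were separate clones, cultures or batches of differentiation. The p-values below therefore rest on the spread between libraries of the same group, which may be technical. Of the 23154 genes in the count table, 13735 had at least 10 counts in at least 2 of the 5 libraries, and these were the genes tested. Undifferentiated cells of the same lines (day 0), again 3 KO and 2 WT libraries, served for comparison. Levels are given as CPM, counts of a gene per M counts of all tested genes after TMM scaling, always for KO replicates 1, 2 and 3 and WT replicates 1 and 2 in that order. CPM is not corrected for gene length, so levels of different genes are not compared.

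An enhancer is a stretch of DNA outside the promoter that raises transcription of one or more genes, often in particular cell types. In neural differentiation, stem cells shut off the pluripotency factors and form dividing progenitors that express SoxB1 factors, nestin and Notch signalling genes. Some progenitors then switch on proneural transcription factors such as neurogenins, leave the cell cycle and become neurons with their own cytoskeleton, channels and synaptic proteins. Cultures of stem cells can also form extra-embryonic endoderm, which is controlled by GATA and SOX17 factors, and whose parietal branch secretes the laminin, nidogen and collagen IV of a thick basement membrane.

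Markers of both progenitors and neurons were present in all 5 libraries. The 6 progenitor markers (Sox1, Sox2, Pax6, Nes, Hes5, Fabp7) summed to 825, 788 and 960 CPM in KO, against 1330 and 1440 CPM in WT. The 6 neuron markers (Tubb3, Dcx, Map2, Stmn2, Elavl3, Rbfox3) summed to 189, 369 and 402 CPM in KO, against 1450 and 991 CPM in WT, and all 6 fell. Endoderm markers (Sox17, Foxa2, Gata6, Gata4, Afp) ran the other way, at 353, 500 and 771 CPM in KO, against 92.3 and 86.3 CPM in WT. The 6 markers of pluripotent cells (Pou5f1, Nanog, Zfp42, Esrrb, Klf4, Dppa5a) summed to 353, 226 and 210 CPM in KO, against 75.2 and 159 CPM in WT, at day 8, where day 0 libraries of both genotypes summed to 6340 to 6990 CPM. Klf4 and Dppa5a together carried that excess in KO replicates 2 and 3: these 2 summed to 168, 178 and 176 CPM in KO, against 31 and 59.6 CPM in WT, and the other 4 summed to 185, 47.7 and 34.1 CPM in KO, against 44.2 and 99.4 CPM in WT. In KO replicate 3 it was Klf4, at 131 CPM, since Dppa5a had 44.7 CPM there, against 24.2 and 45 CPM in WT. Mesoderm, muscle and heart, surface ectoderm and neural crest markers stayed at or below 23.3 CPM in every day 8 library, blood and vessel markers reached 50.9 CPM in KO and 24.9 CPM in WT, and glial markers reached 45.8 CPM in KO and 55 CPM in WT. No marker of any list was at 0 in all 5 libraries. Because these are bulk samples, fewer cells of a type and less RNA per cell cannot be told apart.

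**Figure D1:**
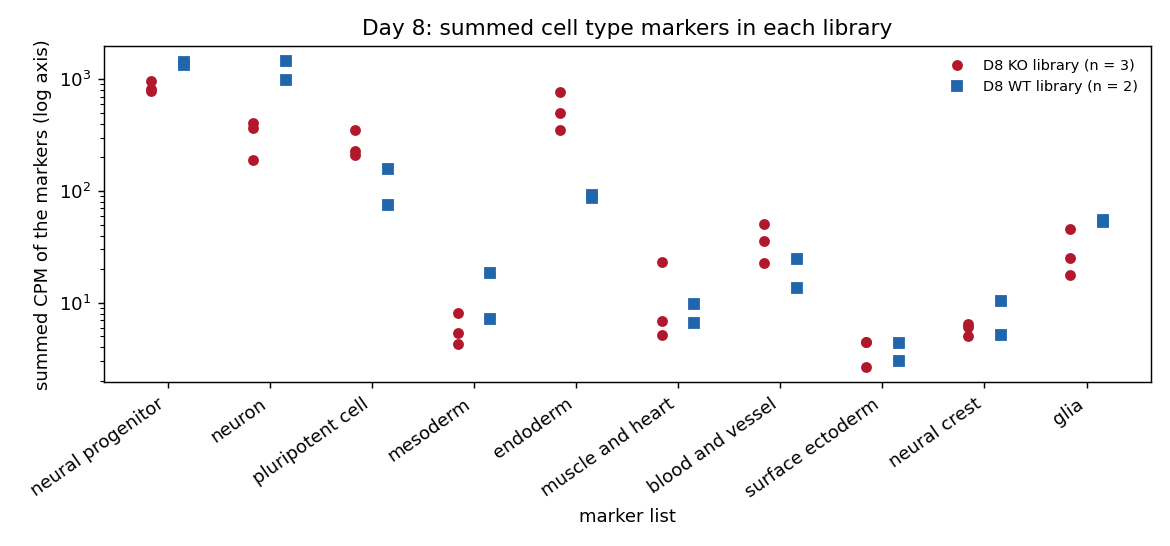
Summed CPM of the markers of 10 cell types (x axis) in each day 8 library (y axis, log scale), with circles for the 3 KO libraries and squares for the 2 WT libraries. The neuron markers of the KO libraries (189 to 402 CPM) lie below those of the WT libraries (991 and 1450 CPM), and the endoderm markers of the KO libraries (353 to 771 CPM) lie above those of the WT libraries (86.3 and 92.3 CPM).

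The libraries held 5.96 to 11 M counts at day 8. Across all genes at day 8 the first principal component carried 60.3% of the variance and placed KO replicates at -5.79, -63.8 and -43.1 and WT replicates at 66.4 and 46.2, so KO replicate 1 lay nearest to WT. Replicates at day 8 differed more than those at day 0: a chi-square of the counts over genes per degree of freedom lay between 12.5 and 63.9 for day 8 pairs and between 3.78 and 7.3 for day 0 pairs. The test shares 1 estimate of spread per gene over both days. The day 8 p-values thus draw in the closer day 0 replicates, and can be too small for the spread of the day 8 libraries.

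After differentiation the KO cells differed from WT cells in a large share of their transcriptome. With edgeR's quasi-likelihood test (Benjamini-Hochberg adjusted p under 0.05) 1486 genes rose, 10.8% of those tested, and 1572 fell, 11.4%, which together make 22.3%. Of these, 748 rose and 778 fell by at least 2-fold. All 3 KO libraries lay above both WT libraries for 22.1% of genes and below both for 27% of genes, and 3033 of the 3058 called genes were among these. The median over all genes was -0.07. The number of calls depended strongly on which libraries were used. Fitted alone, the 5 day 8 libraries gave 384 higher and 314 lower genes, and 697 of these 698 were called in the same direction in the fit of all 10. Without KO replicate 1 there were 2521 higher and 3094 lower genes, without KO replicate 3 there were 999 and 851, without WT replicate 1 there were 499 and 345, and without WT replicate 2 there were 744 and 618. The list counts given below with a library left out are to be read beside these smaller or larger totals. Total-count scaling shifted the median to -0.19 and made 37.1% of the calls higher, against 48.6% with TMM.

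Genes of young neurons were lower in KO cells at day 8. Miat, a long noncoding RNA of the nervous system on chromosome 5, had 172, 142 and 183 CPM in the KO libraries, against 910 and 779 CPM in the WT libraries. The groups did not overlap, and Miat fell by 2.35 ± 0.15 on the log2 scale (edgeR adjusted p = 2.4e-05), with the smallest p of the falling genes outside chromosome Y. Dcx, the microtubule-binding protein doublecortin of migrating neurons, had 10.4, 15.8 and 20.1 CPM in the KO libraries, against 119 and 79.7 CPM in the WT libraries. It fell by 2.68 ± 0.31 on the log2 scale (edgeR adjusted p = 0.00106), every KO library again lying below both WT libraries. Map2, a microtubule protein of dendrites, had 40.4, 36.7 and 55.1 CPM in the KO libraries, against 225 and 140 CPM in the WT libraries, and fell by 2.05 ± 0.23 on the log2 scale (edgeR adjusted p = 0.000918). Myt1, a zinc-finger factor of neuronal differentiation, had 7.93, 8.67 and 9.65 CPM in the KO libraries, against 72.5 and 51.9 CPM in the WT libraries. It too fell without overlap, by 2.83 ± 0.29 on the log2 scale.

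As a group, 22 of the 30 young neuron genes fell and none rose, 73.3% against the 22.3% of all genes called. Their median log2 fold change was -1.60, against -0.07 over all genes. The number that fell was 17 with the 5 day 8 libraries alone and 15 without WT replicate 1. This list and the others below were chosen with earlier results of these data known. Their counts and medians describe the members and are not a test. Ncam1, a neural cell adhesion molecule, fell by 1.76 ± 0.21 on the log2 scale (edgeR adjusted p = 0.0011). Kif1a, a motor protein that carries synaptic vesicle precursors, had 47.6, 41.6 and 48.5 CPM in the KO libraries, against 129 and 133 CPM in the WT libraries, the KO libraries lying close together and well below WT. Apc2, a neuronal relative of the tumour suppressor Apc, fell by 2.60 ± 0.29 on the log2 scale (edgeR adjusted p = 0.000918). Gap43, a growth cone protein, did not pass: it had 15, 35.2 and 44.5 CPM in the KO libraries, against 206 and 38.5 CPM in the WT libraries. Its WT values lay far apart, and the WT replicate 2 value was inside the KO range.

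Genes of synapses, transmitters and channels fell with them. Of 20 synapse and transmitter genes 15 fell and none rose (median -1.59), 75% against the 22.3% of all genes called. Only 5 fell without WT replicate 1 and 8 without WT replicate 2. Slc17a6, the vesicular glutamate transporter VGLUT2, had 1.25, 2.34 and 3.15 CPM in the KO libraries, against 12.4 and 22.8 CPM in the WT libraries, and Gria2, an AMPA glutamate receptor subunit, had 2.09, 3.8 and 3.35 CPM in the KO libraries, against 14.3 and 16.4 CPM in the WT libraries. Both fell without overlap, by 2.96 ± 0.47 and 2.31 ± 0.45 on the log2 scale. Th, tyrosine hydroxylase, the rate-limiting enzyme of dopamine synthesis, was low in both groups and fell by 3.23 ± 0.49 on the log2 scale (edgeR adjusted p = 0.00245). Vamp2, a synaptic vesicle protein that other cells also express, stood at -0.11 ± 0.23 (edgeR adjusted p = 0.752). Of 30 ion channel genes 12 fell and 1 rose (median -0.95), 43.3% against the 22.3% of all genes called. With WT replicate 1 left out only 3 fell and none rose. Scn3a, a voltage-gated sodium channel of the embryonic brain, had 2.82, 3.7 and 5.12 CPM in the KO libraries, against 32.5 and 20.5 CPM in the WT libraries, and fell by 2.76 ± 0.32 on the log2 scale (edgeR adjusted p = 0.000918). Cacna1h, a T-type calcium channel, fell by 2.30 ± 0.32 on the log2 scale (edgeR adjusted p = 0.0018).

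Genes that guide axons and mark individual neurons were lower as well. Of 38 axon guidance genes 15 fell and none rose (median -0.76), 39.5% against the 22.3% of all genes called. The falls numbered 5 without WT replicate 1 and 9 without WT replicate 2. Robo3, a receptor that controls midline crossing, had 4.18, 3.41 and 4.33 CPM in the KO libraries, against 26 and 15.6 CPM in the WT libraries, and fell by 2.38 ± 0.38 on the log2 scale (edgeR adjusted p = 0.00282). Dcc, a netrin receptor, had 13.3, 21.6 and 24.3 CPM in the KO libraries, against 64.9 and 80 CPM in the WT libraries, and fell by 1.88 ± 0.35 on the log2 scale (edgeR adjusted p = 0.00502). Sema3a, a repellent, stood at 0.10 ± 0.55 (edgeR adjusted p = 0.909). Of 20 clustered protocadherins, adhesion genes from which neurons choose individual sets, 10 fell and none rose, with a median of -1.72. Their called share was 50%, against 22.3% of all genes. The count of falls was 6 without KO replicate 2, 6 without KO replicate 3, 0 without WT replicate 1 and 5 without WT replicate 2. Pcdhb2 had 1.04, 0.682 and 1.28 CPM in the KO libraries, against 7.55 and 4.23 CPM in the WT libraries, and its call was among those lost without WT replicate 1, at -1.97 (edgeR adjusted p = 0.0971).

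**Figure D2:**
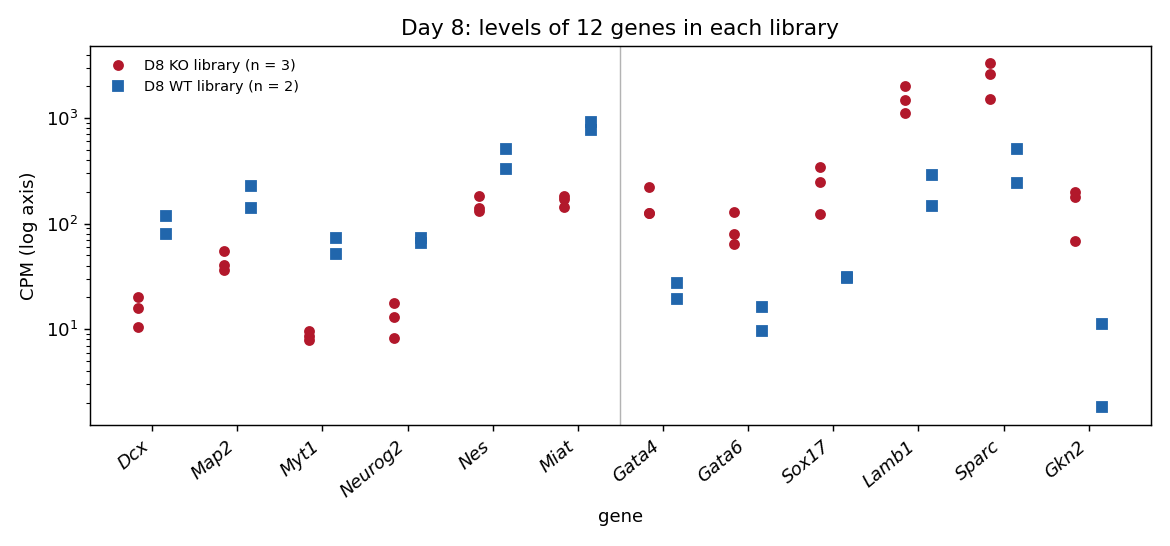
CPM (y axis, log scale) of 12 genes (x axis) in each day 8 library, with circles for the 3 KO libraries and squares for the 2 WT libraries. The 6 genes on the left (Dcx, Map2, Myt1, Neurog2, Nes, Miat) are lower in every KO library than in either WT library, and the 6 on the right (Gata4, Gata6, Sox17, Lamb1, Sparc, Gkn2) are higher.

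Upstream of the neurons, the proneural factors were lower too. Neurog2, a basic helix-loop-helix factor that commits progenitors to neurons, had 8.25, 13.2 and 17.5 CPM in the KO libraries, against 65.7 and 73.4 CPM in the WT libraries, and fell by 2.42 ± 0.36 on the log2 scale (edgeR adjusted p = 0.00222). Nhlh1, a related factor of newly formed neurons, had 5.22, 4.67 and 6.7 CPM in the KO libraries, against 42.3 and 20.6 CPM in the WT libraries, and fell by 2.50 ± 0.40 on the log2 scale (edgeR adjusted p = 0.00272). Dll3, a Notch ligand of differentiating cells, had 12, 19 and 21.5 CPM in the KO libraries, against 70.7 and 54.4 CPM in the WT libraries. It fell by 1.84 ± 0.30 on the log2 scale (edgeR adjusted p = 0.00304), and again the groups did not overlap. Of 23 proneural and Notch genes 13 fell and 1 rose (median -1.21), 60.9% against the 22.3% of all genes called. The falls numbered 6 without WT replicate 1 and 7 without WT replicate 2. The single rise was Hes1, a Notch-responsive repressor of proneural genes, at 76.5, 119 and 91.2 CPM in the KO libraries, against 27.8 and 60.3 CPM in the WT libraries. It rose by 1.11 ± 0.29 on the log2 scale (edgeR adjusted p = 0.0211), and stood at 0.77 (edgeR adjusted p = 0.116) without WT replicate 1.

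Progenitor genes split. Nes, the intermediate filament nestin, had 132, 140 and 183 CPM in the KO libraries, against 511 and 332 CPM in the WT libraries, and fell by 1.47 ± 0.20 on the log2 scale (edgeR adjusted p = 0.00163). Notch1, the receptor, had 62.8, 38.4 and 55.9 CPM in the KO libraries, against 134 and 166 CPM in the WT libraries, and fell by 1.52 ± 0.20 on the log2 scale (edgeR adjusted p = 0.0014). Sox2, which keeps neural progenitors and pluripotent cells in their state, had 370, 245 and 313 CPM in the KO libraries, against 289 and 477 CPM in the WT libraries, with overlapping groups and a log2 fold change of -0.31 ± 0.22 (edgeR adjusted p = 0.308). Sox1, an early neural marker, had 137, 124 and 131 CPM in the KO libraries, against 60.2 and 181 CPM in the WT libraries. All 3 KO values of Sox1 lay between the 2 WT values, and its fold change was 0.11 ± 0.39 (edgeR adjusted p = 0.856). Of 24 neural progenitor factors 9 fell and none rose (median -0.60), 37.5% against the 22.3% of all genes called. The falls numbered 3 without KO replicate 3, 2 without WT replicate 1 and 5 without WT replicate 2.

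Few factors of brain regions passed, and the 2 WT libraries could differ widely between themselves. Six3, an anterior forebrain factor, had 53.8, 75.8 and 49 CPM in the KO libraries, against 6.49 and 64.5 CPM in the WT libraries, with WT replicate 1 the lowest of the 5, and moved to 3.27 (edgeR adjusted p = 0.00366) without WT replicate 2, against 0.73 with all libraries. Of 26 forebrain and midbrain factors 2 fell, a called share of 7.69% against 22.3% of all genes. The falls numbered 6 without KO replicate 1, 4 without WT replicate 1, and 1 without KO replicate 2 or KO replicate 3. Of 8 hindbrain and spinal Hox genes tested, of 26 in the list, 3 rose (37.5%) and none fell (median 2.39), all at low levels. No Hox gene passed with the 5 day 8 libraries alone, nor without KO replicate 3, WT replicate 1 or WT replicate 2, while 5 passed without KO replicate 1 and 1 without KO replicate 2. Hoxb4, for example, had 1.36, 4.48 and 4.92 CPM in the KO libraries, against 1.06 and 0.223 CPM in the WT libraries. Gli2, a transcription factor of Hedgehog signalling on chromosome 1, had 22.8, 5.75 and 12.7 CPM in the KO libraries, against 63.1 and 61.7 CPM in the WT libraries, and fell by 2.19 ± 0.37 on the log2 scale (edgeR adjusted p = 0.00345). Its neighbours on that chromosome are described further below.

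In the opposite direction, endoderm genes rose. Gata4, a zinc-finger factor of extra-embryonic endoderm and heart, had 125, 127 and 224 CPM in the KO libraries, against 19.5 and 27.5 CPM in the WT libraries, and rose by 2.75 ± 0.30 on the log2 scale (edgeR adjusted p = 0.00091). Its relative Gata6, which drives the first endoderm of the embryo, had 64.3, 79.3 and 128 CPM in the KO libraries, against 9.51 and 16.2 CPM in the WT libraries, and rose by 2.80 ± 0.43 on the log2 scale (edgeR adjusted p = 0.00246). Sox17, a high-mobility-group factor of endoderm, had 123, 249 and 343 CPM in the KO libraries, against 30.5 and 31.2 CPM in the WT libraries, and rose by 2.95 ± 0.48 on the log2 scale (edgeR adjusted p = 0.00284). For each of these 3 factors the lowest KO library stood well above both WT libraries. Dab2, an endocytic adaptor of visceral and parietal endoderm, rose by 2.15 ± 0.36 on the log2 scale (edgeR adjusted p = 0.00347). Foxa2, a pioneer factor of definitive and visceral endoderm, had 39.5, 45.6 and 74.6 CPM in the KO libraries, against 32.5 and 11.4 CPM in the WT libraries and did not pass, at 1.29 ± 0.45 (edgeR adjusted p = 0.058), but did without WT replicate 1, at 2.32 (edgeR adjusted p = 0.0297). Of 19 endoderm genes 12 rose and none fell (median 1.64), 63.2% against the 22.3% of all genes called. The count was 6 without KO replicate 3, 6 without WT replicate 1 and 7 without WT replicate 2. Other members of this list rose too, among them Ttr by 3.27 ± 0.68, Amn by 2.21 ± 0.55 and Hnf4a by 1.64 ± 0.51. Cubn, at 1.02 ± 0.61, and Rbp4, at 0.39 ± 0.59, did not pass. The list does not separate visceral from parietal endoderm.

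Basement membrane genes rose with them and were abundant. Lamb1, a laminin beta chain, had 1119, 1492 and 2005 CPM in the KO libraries, against 147 and 288 CPM in the WT libraries, and rose by 2.82 ± 0.32 on the log2 scale (edgeR adjusted p = 0.000918). Lama1, the laminin alpha chain that pairs with it in early embryos, had 1887, 1594 and 2678 CPM in the KO libraries, against 263 and 403 CPM in the WT libraries. Lamc1, the gamma chain, had 1477, 1003 and 1903 CPM in the KO libraries, against 208 and 316 CPM in the WT libraries. All 3 chains rose without overlap, Lama1 by 2.62 ± 0.29 and Lamc1 by 2.48 ± 0.28 on the log2 scale. Sparc, a calcium-binding matrix protein that parietal endoderm makes in large amounts, had 1500, 2638 and 3314 CPM in the KO libraries, against 241 and 513 CPM in the WT libraries, and rose by 2.72 ± 0.37 on the log2 scale (edgeR adjusted p = 0.00171). Nid1, the laminin-binding nidogen, rose by 3.15 ± 0.46 on the log2 scale (edgeR adjusted p = 0.00223). Col1a1, a collagen of fibroblasts, had 2.4, 2.63 and 5.91 CPM in the KO libraries, against 4.53 and 2.78 CPM in the WT libraries and stood at 0.01 ± 0.44 (edgeR adjusted p = 0.988). Of 24 mesenchymal and matrix genes 10 rose and none fell, 41.7% against the 22.3% of all genes called. Their median was 0.29, against -0.07 over all genes, and 7 rose without WT replicate 1.

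A list of 23 parietal endoderm genes was put together after these values had been seen, so its direction is a description and nothing more. All 23 rose, with a median of 2.72, and 20 of them did so with the 5 day 8 libraries alone and 16 without WT replicate 1. Besides the laminins, Sparc, Nid1 and the GATA and SOX factors it holds Snai1, a repressor of E-cadherin, which had 24.7, 41.8 and 51.9 CPM in the KO libraries, against 4.38 and 5.01 CPM in the WT libraries. It also holds F3, the clotting initiator tissue factor, which had 76.1, 113 and 149 CPM in the KO libraries, against 12.5 and 15 CPM in the WT libraries. Srgn, the proteoglycan core protein serglycin, rose by 4.07 ± 0.71 on the log2 scale (edgeR adjusted p = 0.00407). Epas1, a hypoxia-inducible factor outside that list, had 132, 126 and 231 CPM in the KO libraries, against 22.4 and 26.6 CPM in the WT libraries, and rose by 2.73 ± 0.27 on the log2 scale (edgeR adjusted p = 0.000778). Pdgfra, a growth factor receptor of primitive endoderm and mesenchyme, had 117, 107 and 182 CPM in the KO libraries, against 30.7 and 23.2 CPM in the WT libraries, and rose by 2.33 ± 0.28 on the log2 scale (edgeR adjusted p = 0.0011).

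Several genes best known from the stomach were among the 20 largest rises without overlap and with a mean log2 CPM of at least 3. Genes below that level are outside the ranking. Gkn1, gastrokine 1, a secreted protein of gastric mucosa, had 28.6, 153 and 127 CPM in the KO libraries, against 1.21 and 7.57 CPM in the WT libraries, and rose by 4.48 ± 0.80 on the log2 scale (edgeR adjusted p = 0.00511). Its neighbour on chromosome 6, Gkn2, had 68.8, 178 and 200 CPM in the KO libraries, against 1.81 and 11.2 CPM in the WT libraries, and rose by 4.45 ± 0.71 on the log2 scale (edgeR adjusted p = 0.00536). Pga5, a pepsinogen, had 202, 507 and 524 CPM in the KO libraries, against 18.1 and 35.2 CPM in the WT libraries, and rose by 3.94 ± 0.45 on the log2 scale (edgeR adjusted p = 0.000918). Plbd1, a phospholipase B domain protein also on chromosome 6 but not counted as a stomach gene, rose by 3.86 ± 0.50 on the log2 scale (edgeR adjusted p = 0.0014). KO replicate 1 was the lowest KO library for Gkn1, Gkn2 and Pga5, and still above both WT libraries. Without KO replicate 2 Gkn2 stood at 4.32 (edgeR adjusted p = 0.0734). The stomach-type list, which holds neither Pga5 nor Plbd1, did not follow as a whole. Of its 24 genes 8 had enough counts to be tested, 3 of these rose (37.5%, against 22.3% of all genes called) and none fell. The 3 were Gkn1, Gkn2 and Barx1, whose KO and WT libraries overlapped in the case of Barx1. Without KO replicate 2 only 1 rose. Muc1, a membrane mucin, stood at -0.44 ± 0.32 (edgeR adjusted p = 0.324).

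To set promoters beside these values, the 300 bases around each start site (RefSeq, GRCm38.p6) are shown for rising genes that hold the letters GATAA, the core recognised by GATA factors, on either strand. Those letters, or TTATC for the other strand, are in capitals.
Gkn1 (chr6:87350866-87351165, minus strand): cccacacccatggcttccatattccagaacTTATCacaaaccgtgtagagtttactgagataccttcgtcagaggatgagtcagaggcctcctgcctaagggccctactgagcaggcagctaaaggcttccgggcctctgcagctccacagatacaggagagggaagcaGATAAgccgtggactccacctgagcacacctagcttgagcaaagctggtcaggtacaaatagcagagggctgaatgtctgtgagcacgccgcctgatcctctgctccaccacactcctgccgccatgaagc
Gkn2 (chr6:87373115-87373414, plus strand): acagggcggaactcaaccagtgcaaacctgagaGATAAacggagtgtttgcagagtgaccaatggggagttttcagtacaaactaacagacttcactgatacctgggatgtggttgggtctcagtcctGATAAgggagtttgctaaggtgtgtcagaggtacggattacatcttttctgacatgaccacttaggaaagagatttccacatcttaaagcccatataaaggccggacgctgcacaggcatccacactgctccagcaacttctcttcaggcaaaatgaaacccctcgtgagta
Plbd1 (chr6:136661844-136662143, minus strand): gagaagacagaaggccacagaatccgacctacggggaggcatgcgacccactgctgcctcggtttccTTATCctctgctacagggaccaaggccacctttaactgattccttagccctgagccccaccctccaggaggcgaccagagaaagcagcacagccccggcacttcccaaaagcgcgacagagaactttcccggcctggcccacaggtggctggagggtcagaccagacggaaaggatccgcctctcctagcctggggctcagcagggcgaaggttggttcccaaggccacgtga
Gkn1 and Gkn2 each hold the letters at 2 places and Plbd1 at 1. Promoters were listed for 15 of the 20 largest rises, and these were the 3 with a match, 20%. Of the 15 listed promoters of the 20 largest falls 2 had one, 13.3%, and of the 10441 listed promoters of all tested genes 15.2%. The letters CAGCTG, an E-box read the same on both strands that proneural factors can bind, were in 2 of 15 promoters of rises and 2 of 15 promoters of falls, 13.3% each, against 14.9% of all. Among the falls one was that of Slc1a2, an astrocyte glutamate transporter, with the E-box in capitals. Miat is shown as the fall with the smallest p off chromosome Y, and its window held neither motif.
Slc1a2 (chr2:102706188-102706487, plus strand): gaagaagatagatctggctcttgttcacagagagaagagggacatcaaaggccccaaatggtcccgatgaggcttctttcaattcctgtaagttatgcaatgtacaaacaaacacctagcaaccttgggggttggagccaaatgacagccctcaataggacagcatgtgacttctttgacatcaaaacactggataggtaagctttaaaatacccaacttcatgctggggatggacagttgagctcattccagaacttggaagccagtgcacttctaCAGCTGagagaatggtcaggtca
Miat (chr5:112228899-112229198, minus strand): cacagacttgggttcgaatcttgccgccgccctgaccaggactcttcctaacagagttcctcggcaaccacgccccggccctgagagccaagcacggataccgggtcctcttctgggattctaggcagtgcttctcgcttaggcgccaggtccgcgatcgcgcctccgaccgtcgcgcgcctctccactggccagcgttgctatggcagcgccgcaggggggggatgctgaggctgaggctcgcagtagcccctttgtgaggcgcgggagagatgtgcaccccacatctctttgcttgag
The shares of rises and falls with either motif thus lay near those of all promoters. Slc1a2 had 7.52, 5.26 and 11.1 CPM in the KO libraries, against 67.5 and 25.9 CPM in the WT libraries, and its call was lost without WT replicate 1, at -1.61 (edgeR adjusted p = 0.0644).

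Some simple epithelial and trophoblast genes were also higher. Krt8, a keratin of simple epithelia and endoderm, had 103, 333 and 322 CPM in the KO libraries, against 38.5 and 31.8 CPM in the WT libraries, and rose by 2.85 ± 0.49 on the log2 scale (edgeR adjusted p = 0.00371). Of 16 epithelial genes 7 rose and none fell (median 0.57), 43.8% against the 22.3% of all genes called. The rises numbered 3 without KO replicate 3, 1 without WT replicate 1 and 3 without WT replicate 2. Cdh1, E-cadherin, had 24.3, 13.3 and 14.4 CPM in the KO libraries, against 11.2 and 21.3 CPM in the WT libraries and stood at 0.08 ± 0.29 (edgeR adjusted p = 0.861). Among 11 trophoblast genes 3 rose, none fell and 4 had a negative fold change, a count of 2 higher and 2 lower without WT replicate 1 and of 2 higher without WT replicate 2. The called share of the trophoblast list, 27.3%, was near the 22.3% of all genes. The X-linked homeobox genes Rhox5 and Rhox6, expressed in extra-embryonic tissues, were among them: Rhox5 had 27.5, 64.1 and 57.3 CPM in the KO libraries, against 4.53 and 8.13 CPM in the WT libraries, and Rhox6 had 9.08, 23.5 and 17.6 CPM in the KO libraries, against 2.27 and 2.56 CPM in the WT libraries. They rose by 2.95 ± 0.45 and 2.78 ± 0.45 on the log2 scale, with no overlap. Of 12 haemato-endothelial genes 3 rose and 1 fell, 33.3% against the 22.3% of all genes called. The fall was that of Tal1, a blood factor, which had 0.209, 0.195 and 1.08 CPM in the KO libraries, against 12.7 and 0.779 CPM in the WT libraries, so the groups overlapped and WT replicate 1 alone was high. Without that library it stood at -0.54 (edgeR adjusted p = 0.813). No gene of that list fell without KO replicate 2 or without WT replicate 1, 2 fell without WT replicate 2, and 2 rose without WT replicate 1. Flt1, a VEGF receptor of vessels and trophoblast, had 33, 37.6 and 68.7 CPM in the KO libraries, against 11.2 and 11.4 CPM in the WT libraries, and rose by 2.04 ± 0.31 on the log2 scale (edgeR adjusted p = 0.00245). Kdr, the VEGF receptor that marks blood and vessel precursors, had 0.731, 2.04 and 3.35 CPM in the KO libraries, against 2.11 and 1.67 CPM in the WT libraries and stood at 0.12 ± 0.59 (edgeR adjusted p = 0.896).

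**Figure D3:**
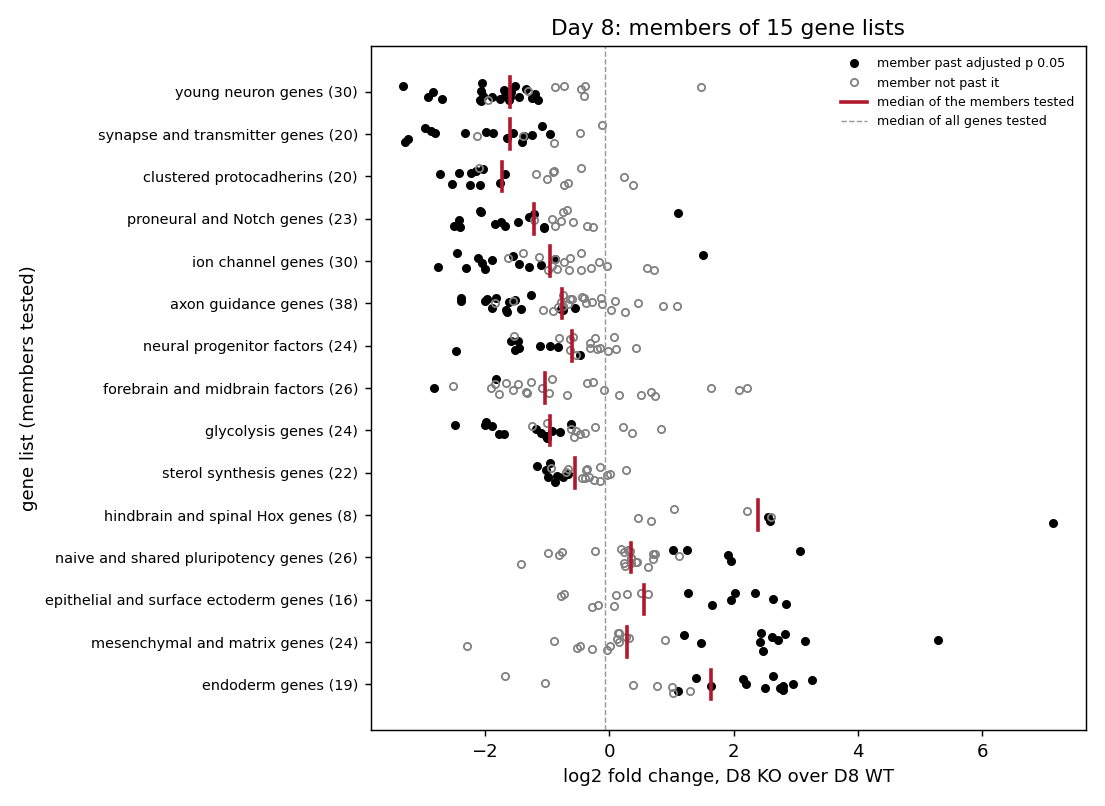
Log2 fold change of day 8 KO over day 8 WT (x axis) for the tested members of 15 gene lists (y axis), filled where edgeR's adjusted p was under 0.05, with a red bar at each list's median and a dashed line at the median of all genes tested. The medians of the young neuron list (-1.60) and the synapse list (-1.59) lie to the left of the dashed line, next to that of the clustered protocadherins (-1.72), and that of the endoderm list (1.64) lies to its right.

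Some pluripotency genes were higher in KO, while the core factors Pou5f1 and Nanog did not pass the test. Klf4, a naive pluripotency factor that epithelia also express, had 48.5, 93.7 and 131 CPM in the KO libraries, against 6.8 and 14.6 CPM in the WT libraries, and rose by 3.07 ± 0.42 on the log2 scale (edgeR adjusted p = 0.00169). Its relative Klf5 had 29.8, 22.7 and 43.3 CPM in the KO libraries, against 8.31 and 8.13 CPM in the WT libraries, and rose by 1.96 ± 0.26 on the log2 scale (edgeR adjusted p = 0.00153). Tbx3, a T-box factor of naive cells and extra-embryonic endoderm, rose by 1.91 ± 0.28 on the log2 scale (edgeR adjusted p = 0.00216). Pou5f1 (Oct4) had 76, 28.1 and 20.8 CPM in the KO libraries, against 17.5 and 47.3 CPM in the WT libraries, and Nanog had 64, 9.74 and 4.83 CPM in the KO libraries, against 11.3 and 26.9 CPM in the WT libraries. KO replicate 1 held the most of both, and the groups overlapped. Without KO replicate 1 Nanog stood at -1.42 (edgeR adjusted p = 0.0134), against 0.43 ± 0.79 (edgeR adjusted p = 0.716) with it. Of 26 pluripotency genes 5 rose and none fell (median 0.35), and the called share, 19.2%, was below the 22.3% of all genes. The count became 4 higher and 6 lower without KO replicate 1, and 3 higher without KO replicate 2 or without WT replicate 1.

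Among signalling genes some rose and some fell. Fst, follistatin, an activin antagonist, had 101, 496 and 470 CPM in the KO libraries, against 29.6 and 47.4 CPM in the WT libraries, and rose by 3.20 ± 0.59 on the log2 scale (edgeR adjusted p = 0.00482). Without WT replicate 1 it stood at 3.02 (edgeR adjusted p = 0.0529). Of 24 BMP and TGF-beta genes 6 rose and 3 fell, 37.5% against the 22.3% of all genes called. The counts were 4 and 1 without KO replicate 2, 3 and 1 without KO replicate 3, 1 and 0 without WT replicate 1, and 4 and 1 without WT replicate 2. Fgf3, a ligand of hindbrain and endoderm, had 10.4, 22.6 and 24.5 CPM in the KO libraries, against 1.96 and 3.9 CPM in the WT libraries, and rose by 2.68 ± 0.46 on the log2 scale (edgeR adjusted p = 0.00375). Fgf10, a ligand of organ buds, had 7.1, 8.37 and 11.1 CPM in the KO libraries, against 2.27 and 1.78 CPM in the WT libraries, and rose by 2.14 ± 0.35 on the log2 scale (edgeR adjusted p = 0.00298). Fgfr3, a receptor of neural progenitors, had 24.9, 26.5 and 33.2 CPM in the KO libraries, against 70.7 and 80.5 CPM in the WT libraries, and fell by 1.42 ± 0.27 on the log2 scale (edgeR adjusted p = 0.00539). Its call was lost without WT replicate 2, at -1.26 (edgeR adjusted p = 0.0532). Of 25 FGF and ERK genes 5 rose and 2 fell, 28% against the 22.3% of all genes called, a count of 6 and 7 without KO replicate 1 and of 3 and 1 without WT replicate 1. With any of the other 3 libraries left out, 5 rose and 1 fell.

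Metabolic genes fell as well. Ldha, lactate dehydrogenase A, had 521, 300 and 286 CPM in the KO libraries, against 1143 and 1233 CPM in the WT libraries, and fell by 1.69 ± 0.26 on the log2 scale (edgeR adjusted p = 0.00252). Eno2, the enolase of neurons, had 8.04, 5.45 and 4.04 CPM in the KO libraries, against 16.3 and 23.4 CPM in the WT libraries, and fell by 1.77 ± 0.32 on the log2 scale (edgeR adjusted p = 0.00453). Of 24 glycolysis genes 13 fell and none rose (median -0.96), 54.2% against the 22.3% of all genes called. Without WT replicate 1 the count was 4, without WT replicate 2 it was 6, and with the 5 day 8 libraries alone it was 3. Of 22 sterol synthesis genes 8 fell and none rose (median -0.55), 36.4% against the 22.3% of all genes called. The falls numbered 4 without KO replicate 3 and 0 without WT replicate 1 or with the day 8 libraries alone.

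Before differentiation far fewer genes passed in the same lines. The test shares 1 estimate of spread per gene over both days, although day 0 replicates differed less than day 8 replicates. The counts of the days are therefore not a measure of how much less the lines differed at day 0. At day 0, 24 genes were higher and 14 lower in KO than in WT, 0.175% and 0.102% of the same 13735 genes, and 1964 had an unadjusted p under 0.05, against 5373 at day 8. Of the 38, 11 changed in the same direction at day 8, which is 28.9% of the day 0 calls and 0.36% of the day 8 calls, and 7 changed in the opposite direction. Across genes, the fold changes of the days were nearly unrelated (Pearson's r 0.03, Spearman's rho 0.02), where genes are not independent replicates. The genes were filtered on day 8 counts alone, and noisy fold changes of genes with few counts at day 0 lower such values. Shifts of whole chromosomes were shared by both days, as given below. Young neuron genes had a median of 0.10 at day 0 and endoderm genes one of 0.40, with no member of either list called. The summed markers were nevertheless already apart at day 0. The neuron markers had 180, 154 and 157 CPM in KO, against 222 and 300 CPM in WT. Nearly all of that was Stmn2 (125, 113 and 110 CPM in KO, 143 and 191 CPM in WT) and Tubb3 (49.7, 35 and 39.7 CPM in KO, 74 and 103 CPM in WT). Elavl3 ran the other way, at 3.5, 3.92 and 5.82 CPM in KO and 2.99 and 2.66 CPM in WT. The endoderm markers had 43.7, 49.3 and 34.4 CPM in KO, against 31.4 and 19.6 CPM in WT. Some neuron genes were near the floor there, such as Dcx, at 0.461 CPM or less in every day 0 library. Miat, for example, had a log2 fold change of 1.32 at day 0 and -2.35 at day 8, and Lama1 had 0.11 at day 0 and 2.62 at day 8.

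The change itself was tested as the KO minus WT difference at day 8 less that at day 0. It was higher at day 8 for 350 genes (2.55%) and lower for 484 genes (3.52%), 6.07% in all, and 712 of these 834 were also called at day 8. Of the lists, 11 of 30 young neuron genes, 5 of 30 ion channel genes, 4 of 20 synapse genes and 4 of 38 axon guidance genes had a lower difference at day 8. Of 24 matrix genes 7 had a higher one, as did 4 of 26 pluripotency genes and 2 of 19 endoderm genes. These counts were sensitive to single libraries: 16 higher and 65 lower genes passed for the difference without WT replicate 1, 115 and 188 without WT replicate 2, 146 and 234 without KO replicate 3, 709 higher without KO replicate 2, and 1730 and 1879 without KO replicate 1.

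**Figure D4:**
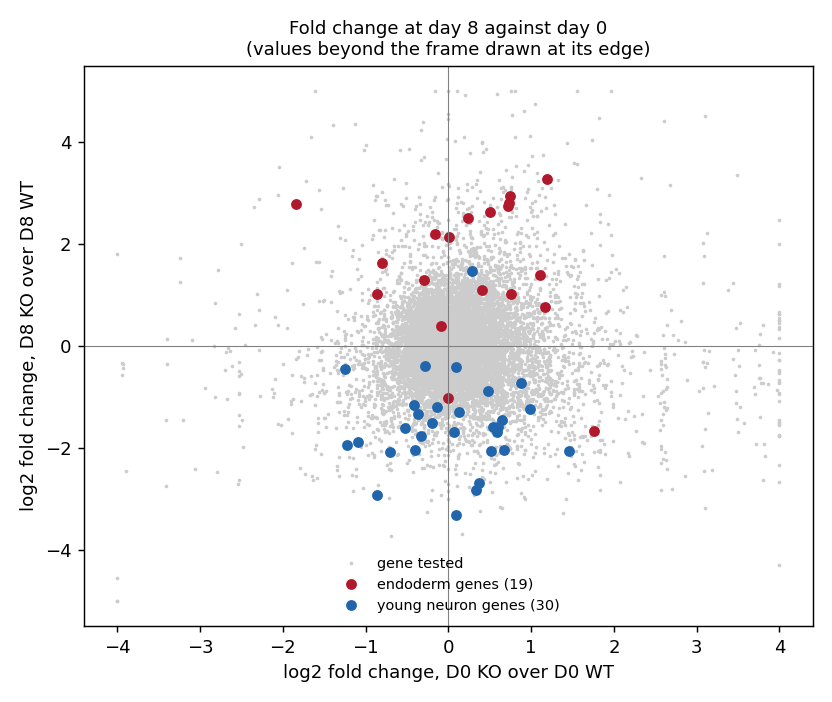
Log2 fold change of KO over WT at day 8 (y axis) against day 0 (x axis) for each gene tested, with endoderm genes in red and young neuron genes in blue. The young neuron genes lie mostly below 0 at day 8 (median -1.60) and around 0 at day 0 (median 0.10), and the endoderm genes lie mostly above 0 at day 8 (median 1.64, against 0.40 at day 0).

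Beside these genes, KO and WT cells differed at both days in ways that follow chromosomes. Eif2s3y, a Y-linked translation factor gene, had no count in any day 8 KO library and 52.5 and 59 CPM in the WT libraries, at least 558-fold lower against a floor of 3 counts over the group. Ddx3y, a Y-linked RNA helicase, had 0.104, 0.39 and 0.295 CPM in the KO libraries, against 33.2 and 36.4 CPM in the WT libraries, and Uty, a Y-linked histone demethylase relative, had 0.94, 0.682 and 0.886 CPM in the KO libraries, against 18 and 22 CPM in the WT libraries. The difference was present at day 0 too, where Ddx3y stood at -7.99. Genes of chromosome 14 had a median of 0.42 at day 8 and 0.46 at day 0, those of chromosome 6 one of 0.36 and 0.29, those of chromosome 11 beyond 60 Mb one of 0.20 and 0.24, and those of chromosome 1 up to 60 Mb one of 0.42 and 0.48. The medians of the chromosomes other than 1, 6, 11, 14 and Y lay between -0.17 and -0.04 at day 8. Each of the 3 KO libraries showed the shifts: at day 8 the median of chromosome 14 over its 477 genes was 0.47, 0.33 and 0.43 above the WT mean in KO replicates 1, 2 and 3. Whether a difference in gene expression at day 8 goes with the deletion or with these differences between the lines cannot be told apart.

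**Figure D5:**
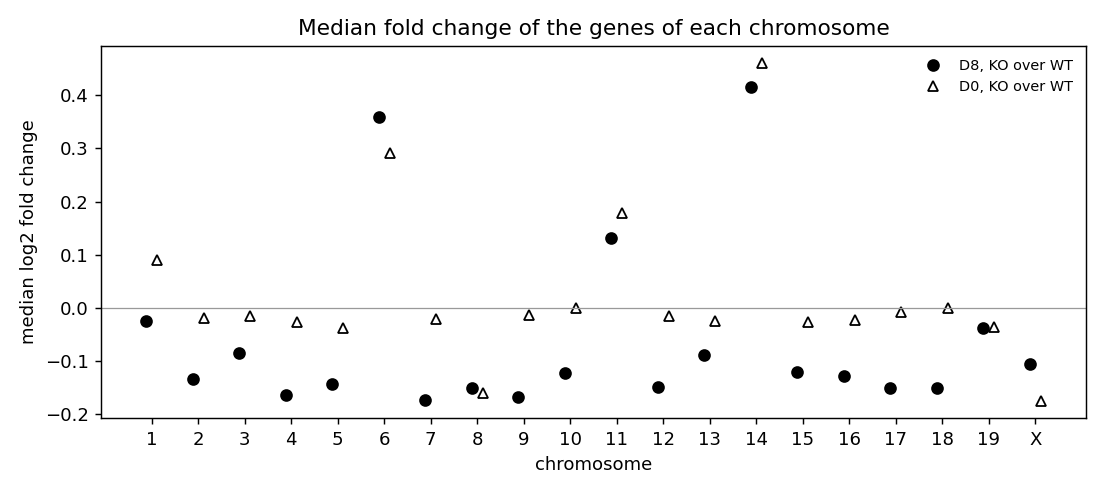
Median log2 fold change of KO over WT (y axis) for the genes of each chromosome except Y (x axis), with filled circles for day 8 and open triangles for day 0. Chromosomes 6 and 14 stand above the others at both days (0.36 and 0.42 at day 8, 0.29 and 0.46 at day 0).

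Calls followed these shifts in part. On chromosome 14, 32.1% of genes rose and 1.47% fell, and on chromosome 6, 27.9% rose and 2.52% fell. Over the 10655 genes of the chromosomes other than 1, 6, 11, 14 and Y, 821 rose (7.71%) and 1349 fell (12.7%). Gata4 and Klf5 lie on chromosome 14, Gkn1, Gkn2 and Plbd1 on chromosome 6, and Sparc on the shifted part of chromosome 11. Measured relative to the median of its own chromosome, each of these 6 genes kept its call, as did Anxa7, an annexin gene of chromosome 14 (1.89 ± 0.18 before that correction). The medians taken off were 0.36 for chromosome 6, 0.42 for chromosome 14 and 0.13 for chromosome 11. They are small beside the rises of these genes, so such calls could hardly be lost. Sox17 lies in the first 60 Mb of chromosome 1 and Gata6 on chromosome 18. The median of chromosome 1 as a whole was -0.02, so this correction does not take up the shift of its first 60 Mb. Relative to chromosome medians, 2770 genes were called in all, 2426 of them in the same direction as before and 1 in the opposite one.

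One stretch of chromosome 1 was lower. The 18 genes tested from Tsn to Ddx18 (RefSeq, GRCm38.p6, chr1:118298514-121567980), had a median of -0.55 at day 8 and -0.67 at day 0, and 17 of the 18 were negative at day 0. Of them, 10 fell at day 8 and none rose. Clasp1, a microtubule plus-end protein, had 92.9, 34.7 and 65.9 CPM in the KO libraries, against 322 and 244 CPM in the WT libraries, and fell by 2.13 ± 0.30 on the log2 scale (edgeR adjusted p = 0.0018), and its log2 fold change at day 0 was -0.89. Gli2 lies in the same stretch, with -0.90 at day 0, as does Tsn, a DNA- and RNA-binding protein, with -0.94 at day 0. Its fall at day 8, -0.88 ± 0.16, was lost without WT replicate 1 at -0.72 (edgeR adjusted p = 0.0759). The stretch was picked out after its values had been seen, and its median moved to -0.82 without KO replicate 2. Whether the stretch lies near Enh9E was not tested, since the labels give no position for the enhancer.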

How the data were processed

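The authors deposited raw counts, 1 whole number for each gene and library, in a table of 10 cell libraries. Per the labels, polyA RNA was isolated with Trizol and prepared with a NEBNext kit. CASAVA 1.8, TopHat2 2.0.9, BWA and mm10 appear in the submitters' processing notes, without their roles. How reads were counted, with which annotation and with or without strand, is not stated in these sources, and near-identical copies or overlapping genes may therefore share reads. Totals ran from 5.96 to 13.2 M counts.

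All 10 libraries entered 1 fit (edgeR 4.0.16, R 4.3.3, TMM, robust quasi-likelihood) over genes with at least 10 counts in at least 2 of the 5 day 8 libraries, with 3 contrasts and Benjamini-Hochberg adjustment over all 13735 genes. The SE is the log2 fold change over the square root of F. Genes at 0 in a group are given a bound from 3 counts, which covers counting error only. In simulated counts for these libraries the fit recovered 35.5%, 78.6% and 94.1% of genes changed by 2-, 4- and 8-fold, and called 15 unchanged genes. The simulation used 1 spread per gene for both days. It therefore does not measure recovery or false calls at the larger spread of the real day 8 replicates. DESeq2 1.42.0, other scalings and filters, a replicate block and leaving out libraries were alternatives.

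The members and the 36 gene lists were chosen with earlier results of these data known, and 1 further list after the values were seen. Genes are named by rule: the 20 largest changes in each direction without overlap and with a mean log2 CPM of at least 3, the smallest p, the highest levels, the largest differences between days, genes at 0 in a group, and members of each list (the called members with the smallest p and some not called). Some genes the rule names are not reported here. The genes of the chromosome 1 stretch and Tsn and Clasp1 were named after their values were seen. Positions and promoters came from RefSeq tables of GRCm38.p6, which matched 13680 genes, 560 of them by a synonym. Of the names in the table, 27 had been turned into dates.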

Additional observations from a re-analysis of the deposited data

Results flagged for a closer look

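The KO minus WT difference was not the same at both days for 350 genes where it was higher at day 8 and 484 where it was lower, by a test of the difference itself (edgeR's quasi-likelihood test, adjusted p under 0.05). Of the 79 genes named here, 35 were among them, 23 with a higher and 12 with a lower difference. Values below are day 8 minus day 0 differences in log2 fold change, KO over WT, with the SE.

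Neuronal genes had lower differences at day 8: Miat at -3.67 ± 0.34, Th at -3.62 ± 0.82, Apc2 at -3.42 ± 0.51, Myt1 at -3.16 ± 0.60 and Scn3a at -3.01 ± 0.45. Further ones were Cacna1h at -2.72 ± 0.56, Kif1a at -2.43 ± 0.23 and Ncam1 at -1.43 ± 0.32. Among progenitor and signalling genes these were Dll3 at -2.73 ± 0.49, Fgfr3 at -2.57 ± 0.55 and Notch1 at -1.502 ± 0.29, and the neuronal enolase stood with them, Eno2 at -3.38 ± 0.48. Miat, Kif1a, Eno2 and Fgfr3 had positive fold changes at day 0 (1.32, 0.92, 1.62 and 1.15) and negative ones at day 8.

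Matrix and endoderm genes had higher differences at day 8: Nid1 at 3.14 ± 0.59, Sparc at 2.94 ± 0.48, Lama1 at 2.51 ± 0.38, Lamc1 at 2.48 ± 0.36 and Lamb1 at 2.39 ± 0.42. So did Dab2 at 2.14 ± 0.51, Gata4 at 2.03 ± 0.41, Snai1 at 2.84 ± 0.46, Pdgfra at 2.47 ± 0.43, F3 at 2.07 ± 0.45 and Epas1 at 2.15 ± 0.36. The pepsinogen Pga5 stood at 4.93 ± 0.76, Plbd1 at 4.33 ± 0.92, and the extra-embryonic genes Rhox5 at 3.81 ± 0.59 and Rhox6 at 3.12 ± 0.60. Secreted signals with a higher difference were Fst at 3.72 ± 0.80 and Fgf10 at 2.10 ± 0.46. Pluripotency factors were Klf4 at 2.39 ± 0.52, Tbx3 at 1.61 ± 0.34 and Klf5 at 1.496 ± 0.33. The others were Anxa7 at 1.62 ± 0.24, Impact at 1.19 ± 0.21 and Cdc6 at 1.06 ± 0.18.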

How the results depend on the processing

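Pairs of numbers give the genes higher in KO and then those lower in KO. Day 8 calls stayed within 1.5 times of 1486 and 1572 with DESeq2, DESeq2 size factors, total counts, the 3 other filters and chromosome medians. They were 384 and 314 with the day 8 libraries alone. Leaving out single libraries gave 499 to 2521 higher and 345 to 3094 lower genes. The replicate block, the label's number within a day, gave 653 and 651. Only 2 pairs of day 8 samples share a number, with correlations of their deviations of 0.11 and 0.17, and the labels do not say what the number marks, so whether it marks a shared batch cannot be told. Calls for the day 8 minus day 0 difference (350 and 484) were 893 and 899 with DESeq2, 195 higher with total counts, 19 and 28 with the replicate block, and 16 to 1730 and 65 to 1879 without single libraries. With filterByExpr 60.3% of day 8 calls were higher. Total counts gave medians of 0.23 for chromosome 6, 0.073 for chromosome 11 beyond 60 Mb, 0.30 for chromosome 14 and 0.29 for chromosome 1 up to 60 Mb. The day 8 libraries alone gave 0.44, 0.28 and 0.50 for the first 3 of these. Without single libraries the medians ran from 0.31 to 0.48, 0.16 to 0.32, 0.38 to 0.51 and 0.39 to 0.59 in that order, and from -0.82 to -0.50 for the lower stretch of chromosome 1. Of 66 called genes named here, 53 kept the call under every alternative. Reversed were Nanog (-1.42 without KO replicate 1, against 1.26 without WT replicate 2) and Uty (1.10 relative to its chromosome's median, which the Y-linked genes themselves set). Other causes were not tested. With 2 WT libraries, a single one decides many calls, WT replicate 1 most often: 8 of the named calls were lost without it. Levels near 0.3 to 0.5 CPM rest on about 3 counts per library.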

Other observations

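Some cell cycle, imprinted and DNA methylation genes passed at day 8, where 10.8% of all genes rose and 11.4% fell, 22.3% in all. Of 30 cell cycle genes 5 rose and none fell (median 0.14), and the called share, 16.7%, was below that of all genes. The count was 9 without KO replicate 2, 3 without KO replicate 3, and 2 without either WT replicate, while 6 rose and 4 fell without KO replicate 1. Cdc6, a loader of the replicative helicase, had 142, 123 and 136 CPM in the KO libraries, against 58.7 and 66.8 CPM in the WT libraries, and rose by 1.09 ± 0.13 on the log2 scale (edgeR adjusted p = 0.00118). Of 28 imprinted genes 3 rose and 7 fell. The falls numbered 3 without KO replicate 2, 4 without KO replicate 3, 1 without WT replicate 1 and 0 without WT replicate 2. Impact, a paternally expressed translation regulator, had 208, 247 and 253 CPM in the KO libraries, against 140 and 129 CPM in the WT libraries, and rose by 0.82 ± 0.15 on the log2 scale (edgeR adjusted p = 0.00528). Ndn, necdin, a paternally expressed gene of neurons, had 31.8, 60.4 and 57.3 CPM in the KO libraries, against 116 and 131 CPM in the WT libraries. It fell by 1.31 ± 0.25 on the log2 scale (edgeR adjusted p = 0.00539), and stood at -1.15 (edgeR adjusted p = 0.0502) without WT replicate 2. Of 13 DNA methylation enzymes 4 fell and none rose, with 8 falls without KO replicate 1 and 1 without either WT replicate. Tet2, which oxidises methylated cytosine, had 26.1, 8.28 and 17.2 CPM in the KO libraries, against 59.4 and 48.6 CPM in the WT libraries. It fell by 1.65 ± 0.33 on the log2 scale (edgeR adjusted p = 0.00702), and stood at -1.41 (edgeR adjusted p = 0.0644) without WT replicate 1.

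In each of the remaining lists 7 members or fewer were called. The called share ran above the 22.3% of all genes for glial genes (35.3%), stress and immediate early genes (33.3%), dorsal neural tube and neural crest genes (28.6%) and hindbrain patterning factors (25%), and was at or below 20% for the others. None of 14 primitive streak and mesoderm genes passed, and 3 rose without KO replicate 1. Of 33 Wnt genes 1 rose and 1 fell, with 7 falls without KO replicate 1, 3 without WT replicate 2 and 2 without KO replicate 3 or WT replicate 1. Of 12 hindbrain patterning factors 1 rose and 2 fell, of 24 ventral neural tube and Hedgehog genes 2 fell, of 21 dorsal neural tube and neural crest genes 3 rose and 3 fell, and of 17 glial genes 2 rose and 4 fell. Among 13 primed epiblast genes 1 rose and 1 fell, among 15 germline genes 1 rose, and among 15 cardiac and muscle genes 2 rose. Retinoic acid genes had 2 rises of 14, p53 target genes 3 rises and 1 fall of 20, stress and immediate early genes 4 rises and 3 falls of 21, and interferon and antigen genes 2 rises of 15. Apart from the streak and Wnt lists, these counts moved between 0 and 6 as single libraries were left out.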
